A study of Mus musculus with 4 samples.

Results

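The genes described here encode fibroblast growth factor (FGF) ligands and their binding proteins, the FGF receptors, FLRT membrane proteins, the Frs adaptors and feedback inhibitors of the ERK pathway in mouse terminal end buds, the bulbous tips from which pubertal mammary ducts grow. They were chosen by symbol. Of 44 RefSeq genes whose symbol matched, 43 had a probe set annotated to that gene alone, and they are the members, out of 19938 genes on the array. Expression of Frs2 was not analysed here. The Ovol2 KO mice carried Ovol2flox/- with the K14-Cre transgene, so 1 allele was floxed and the other was null in every cell. The keratin 14 promoter drove Cre, and which end bud cells had lost the floxed allele was not measured here. The control mice were Ovol2flox/+, with or without K14-Cre according to the protocol text and without it in the sample characteristics, so all mice of both groups carried a floxed Ovol2 allele. All were female C57/BL6 mice, described as 4.5 weeks old in the sample labels and as 24 to 25 days old in the series text. End buds were isolated physically and not sorted by cell type. RNA was pooled from 3 mice on each of the 2 KO arrays and from 2 mice on each of the 2 control arrays, so pool size and genotype cannot be told apart.

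FGFs are signalling proteins that bind receptor tyrosine kinases together with heparan sulfate, and the active receptors pass the signal through Frs adaptors to the ERK cascade. ERK activity in turn switches on its own inhibitors, among them Sprouty and Spred proteins and the Dusp phosphatases, so their transcripts are commonly read as a record of ERK signalling. In the mammary gland, stromal Fgf7 and Fgf10 and epithelial Fgfr2 are known from mouse genetics to be needed for bud formation and for duct growth.

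Values are log2(signal + 16) from the deposited linear signal, quantile normalized over the 4 arrays, and differences are Ovol2 KO minus control on that scale. A gene was tested when its mean over the 4 arrays reached 7.97, and 29 of the 43 members did so. A member was said to have risen or fallen at an adjusted p of 0.05 or below in limma, with adjustment over all 11963 tested genes. Values after ± are standard errors of the log2 difference (n = 2 arrays per group), and the number of arrays limits the precision. In limma a gene's variance was drawn towards a value that followed its mean signal, the variance trend. The 14 alternative settings were no normalization of the deposited values, median centring of the arrays, other offsets and filters, no variance trend or a prior robust to outlying genes, the mean of all probe sets of a gene, leaving out each array, and the replicate number as a block. The targeted gene, Ovol2, read 7.85 and 7.73 in the KO arrays, against 8.05 and 8.31 in the control arrays (log2 difference -0.39 ± 0.16, limma adjusted p = 0.17). Both KO arrays lay below both control arrays, but the difference did not pass. Both KO values lay under the filter level of 7.97, so Ovol2 was tested through its control signal and its KO signal may be background. Where its probes lie relative to the deleted part is not known here. The tissue label was checked with 17 epithelial markers, which were all tested and included Krt8, a luminal keratin gene, between 13.57 and 13.65 on the 4 arrays. Of these 17 markers, 3 rose and 1 fell, while 6.29% of all tested genes rose and 4.45% fell.

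Of the 29 tested members, 3 rose (Fgf2, Fgf1 and Fgfr1), 1 fell (Fgfr3) and 25 did not pass. Over all 11963 tested genes 6.29% rose and 4.45% fell, 10.7% together, so the share of members called was close to that of all genes. The median log2 difference of the tested members was -0.01, against -0.02 for all tested genes. Both KO arrays lay above both control arrays for 8 of the 29 tested members, against 26.4% of all tested genes, and below them for 6, against 29.9% of all tested genes. Together the groups were apart for 14 of 29 members, against 56.3% of all tested genes. The difference was negative for 15 of 29 members, against 55.7% of all tested genes. These counts changed when a control array was left out, as did the counts over all tested genes. Fgfr3 did not pass without either control array, and Fgf1 did not pass without control replicate 1. Dusp4 and Fgfrl1 passed without control replicate 2. Fgf2 and Flrt2 passed the filter through their KO signal, and Fgf22 through its control signal. In the same arrays 17 of 17 tested fibroblast markers rose, 1 of them (Lama2) tested through its KO signal, with a median log2 difference of 1.25, and their part in the members' values was not tested. In whole end buds, fewer cells of a type and less RNA per cell cannot be told apart.

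**Figure D1:**
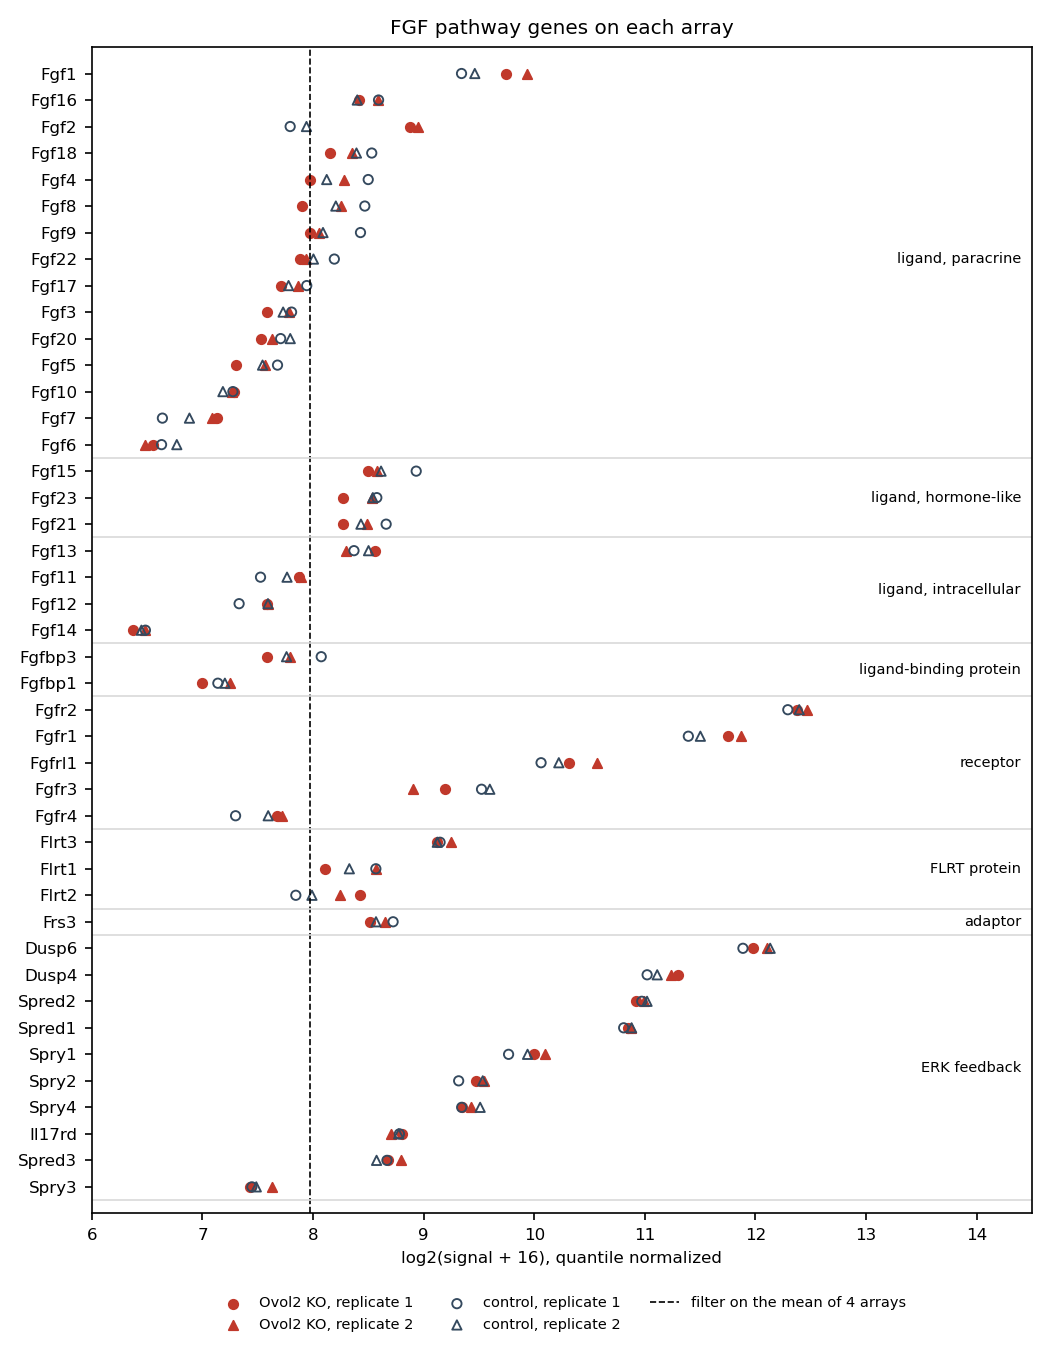
Log2(signal + 16) of each of the 43 members (rows, grouped by role) on the 2 Ovol2 KO arrays (filled red) and the 2 control arrays (open grey), with the filter on the mean at 7.97 as a dashed line. Fgfr2 and Dusp6 lie near 12 on all arrays, most ligands lie within 1 unit of the filter or below it, and Fgf2 has its 2 KO values about 1 unit above its 2 control values.

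Promoter sequences of 3 members are shown because Fgf2 had the largest increase, Fgfr3 was the member that fell, and Fgf7 was the single member whose window held the letters searched for the Ovol family. Each window runs from 250 bases before to 50 bases after a RefSeq transcript start (GRCm38.p6), is on the plus strand, is written 5′ to 3′, and has matches to the 3 motifs below in capitals. The Fgf2 window is chr3:37348403-37348702, the Fgfr3 windows of 2 starts are chr5:33721474-33721773 and chr5:33722056-33722355, and the Fgf7 window is chr2:126034408-126034707.
Fgf2: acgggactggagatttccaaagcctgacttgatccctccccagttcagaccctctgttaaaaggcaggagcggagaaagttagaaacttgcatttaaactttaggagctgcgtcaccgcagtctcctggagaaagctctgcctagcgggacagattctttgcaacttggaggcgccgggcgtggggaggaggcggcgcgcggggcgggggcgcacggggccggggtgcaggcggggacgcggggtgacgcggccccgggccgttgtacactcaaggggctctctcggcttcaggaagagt
Fgfr3, first start: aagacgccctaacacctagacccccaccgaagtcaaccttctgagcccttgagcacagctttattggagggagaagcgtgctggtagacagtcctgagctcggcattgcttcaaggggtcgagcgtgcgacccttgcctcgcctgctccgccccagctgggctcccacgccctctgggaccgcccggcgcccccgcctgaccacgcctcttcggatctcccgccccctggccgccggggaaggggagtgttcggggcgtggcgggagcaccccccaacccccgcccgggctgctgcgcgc
Fgfr3, second start: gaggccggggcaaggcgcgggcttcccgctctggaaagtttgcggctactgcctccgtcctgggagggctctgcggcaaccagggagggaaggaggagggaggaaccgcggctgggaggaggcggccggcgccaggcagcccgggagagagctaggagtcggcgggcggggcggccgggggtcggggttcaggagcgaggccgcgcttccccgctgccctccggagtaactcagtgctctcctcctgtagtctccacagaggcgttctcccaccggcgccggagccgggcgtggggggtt
Fgf7: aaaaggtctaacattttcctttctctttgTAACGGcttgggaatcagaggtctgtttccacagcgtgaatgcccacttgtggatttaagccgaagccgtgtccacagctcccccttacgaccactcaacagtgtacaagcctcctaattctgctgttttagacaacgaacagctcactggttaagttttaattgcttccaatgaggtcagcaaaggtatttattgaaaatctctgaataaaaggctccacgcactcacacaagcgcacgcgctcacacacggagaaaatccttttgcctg

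The motifs searched on both strands were CCGTTA, a core bound by Ovol proteins, CACCTG, an E-box bound by Zeb and Snail repressors, and CCGGAA, a core bound by ETS factors, which act downstream of ERK. No match to any of the 3 lay in the Fgf2 window or in either Fgfr3 window. The Fgf7 window held CCGTTA on the minus strand, printed as TAACGG, 221 bases before the start. Windows were matched for 33 of the genes of the rule, Frs2 included, and there were 40 windows in all. CCGTTA was in 1 of the 40 windows (2.50%) and in 2.76% of all 32851 mouse windows. CACCTG was in 4 (10.0%), those of Fgf4, Fgf11, Fgf12 and Fgf22, and in 20.2% of all windows. CCGGAA was in 7 (17.5%), among them those of Fgfrl1, Flrt2 and Spry2, and in 14.9% of all windows. The Fgf2 window held 24 CpG dinucleotides and was 62.7% G and C, the Fgfr3 windows held 26 and 30, and the Fgf7 window held 11, against a median of 7 over all windows. A match is a description of these letters and does not show binding.

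Among ligands, Fgf2 and Fgf1, which both lack a classical secretion signal and bind heparan sulfate tightly, were higher in the KO arrays. Of 22 ligand genes on the array, 12 were tested, 2 rose, 0 fell and 10 did not pass. Over all tested genes 6.29% rose and 4.45% fell. Fgf2 (probe set 10491699) read 8.88 and 8.95 in the KO arrays, against 7.79 and 7.94 in the control arrays. The deposited signals were 465 and 483 in KO and 211 and 220 in control, and the groups did not overlap. The fitted increase was 2.07-fold (log2 difference 1.05 ± 0.13, 95% CI 0.76 to 1.34, limma adjusted p = 0.00151). Both control values lay under the filter level, so the fold is set against signals that may be background. Fgf2 was tested under 13 of the 14 alternative settings and passed under all of these 13, with log2 differences between 0.91 and 1.12. RefSeq places Nudt6 and Fgf2os across the Fgf2 gene. For Nudt6, a nudix hydrolase gene, the log2 difference was 0.05 ± 0.12 and not past the threshold.

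Fgf1 (probe set 10458560), which can activate all FGF receptors, read 9.74 and 9.94 in the KO arrays, against 9.34 and 9.46 in the control arrays. The groups did not overlap, and the lower KO value was above the higher control value. The increase was 1.35-fold (log2 difference 0.44 ± 0.09, limma adjusted p = 0.0168). It did not pass with median centring (adjusted p = 0.0849), without the variance trend (0.077) or without control replicate 1 (0.109); over all alternatives the adjusted p spanned 5.19e-06 to 0.109.

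The ligands best known from mammary stroma, Fgf7 and Fgf10, had low signals and were not tested. Fgf7 read 7.13 and 7.08 in the KO arrays, against 6.64 and 6.88 in the control arrays, an unfiltered log2 difference of 0.35 with both KO arrays above both control arrays. Fgf10 read 7.28 and 7.27 in the KO arrays, against 7.28 and 7.185 in the control arrays, and the groups overlapped. These levels are in the range where signal and background cannot be separated without detection calls, so neither a change nor its absence can be read from them.

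The other tested ligands lay close to the filter, and none passed. Fgf8, known for roles in limb and brain patterning, read 7.90 and 8.25 in the KO arrays, against 8.47 and 8.21 in the control arrays (log2 difference -0.26 ± 0.17, limma adjusted p = 0.375). Fgf9, a signal between mesenchyme and epithelium in lung, read 7.97 and 8.05 in the KO arrays, against 8.43 and 8.09 in the control arrays (-0.25 ± 0.16). In Fgf9 the KO arrays lay below the control arrays, while in Fgf8 the groups overlapped.

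Fgf15, a gut hormone gene that limits bile acid synthesis, read 8.50 and 8.58 in the KO arrays, against 8.93 and 8.61 in the control arrays (log2 difference -0.23 ± 0.13). Fgf18, known from cartilage and lung, read 8.15 and 8.36 in the KO arrays, against 8.53 and 8.39 in the control arrays (-0.21 ± 0.14). In both genes the KO arrays lay below the control arrays by less than the spread within a group. Fgf4, Fgf22, the metabolic hormone gene Fgf21 and the phosphate hormone gene Fgf23 had log2 differences between -0.19 and -0.16. Fgf16 and the intracellular, non-secreted member Fgf13 had 0.01 and -0.01.

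Of all 12 tested ligands, 9 had a negative log2 difference, against 55.7% of all tested genes. Of the same 12, 9 were highest in control replicate 1 and 8 were lowest in KO replicate 1, against 27.5% and 18.4% of all tested genes. These counts describe the single arrays and are no test.

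The receptors did not move in 1 direction. Of 5 receptor genes, 4 were tested. While 6.29% of all tested genes rose and 4.45% fell, 1 of these 4 rose, 1 fell and 2 did not pass. Each gene has 1 value here, so the IIIb and IIIc splice forms, which set the ligand preference of these receptors in epithelium and in mesenchyme, were not separated. Fgfr1 (probe set 10570982), the main receptor of many mesenchymal cells, read 11.75 and 11.87 in the KO arrays, against 11.39 and 11.50 in the control arrays. The groups did not overlap. The increase was 1.29-fold (log2 difference 0.36 ± 0.06, 95% CI 0.23 to 0.50, limma adjusted p = 0.00641). It passed under 13 of 14 alternatives and missed without the variance trend (adjusted p = 0.0798), in a range from 3.35e-10 to 0.0798.

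Fgfr3 (probe set 10521111), a receptor known as a brake on cartilage growth, read 9.19 and 8.90 in the KO arrays, against 9.52 and 9.60 in the control arrays. Both KO arrays were lower than both control arrays, and the KO arrays lay further apart from each other than the control arrays did. It was 1.43-fold lower in KO (log2 difference -0.51 ± 0.11, 95% CI -0.76 to -0.27, limma adjusted p = 0.0172). The call was lost without control replicate 1 (adjusted p = 0.0586), without control replicate 2 (0.0659) and without the variance trend (0.077); over all alternatives the adjusted p spanned 1.29e-07 to 0.077. The size was -0.66 without KO replicate 1 and -0.37 without KO replicate 2.

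Fgfr2, the receptor that epithelium uses to sense Fgf7 and Fgf10, did not pass. It read 12.38 and 12.47 in the KO arrays, against 12.29 and 12.40 in the control arrays, and the groups overlapped. The log2 difference was 0.08 ± 0.05 with a 95% CI of -0.04 to 0.20 (limma adjusted p = 0.419), so a change of the size found for Fgfr1 lay outside the interval. Fgfrl1, a receptor-like protein that lacks the kinase domain, read 10.31 and 10.57 in the KO arrays, against 10.06 and 10.22 in the control arrays. The KO arrays were both higher, with a log2 difference of 0.30 ± 0.09 that did not pass (limma adjusted p = 0.0711). Fgfrl1 passed in the values as deposited (limma adjusted p = 0.0111) and with the replicate number as a block (0.000268). It also passed without control replicate 2, at a log2 difference of 0.38, and without KO replicate 1, at 0.43. Without KO replicate 2 it was 0.17 and did not pass. Fgfr4 lay under the filter, at 7.67 and 7.72 in KO and 7.30 and 7.59 in control.

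**Figure D2:**
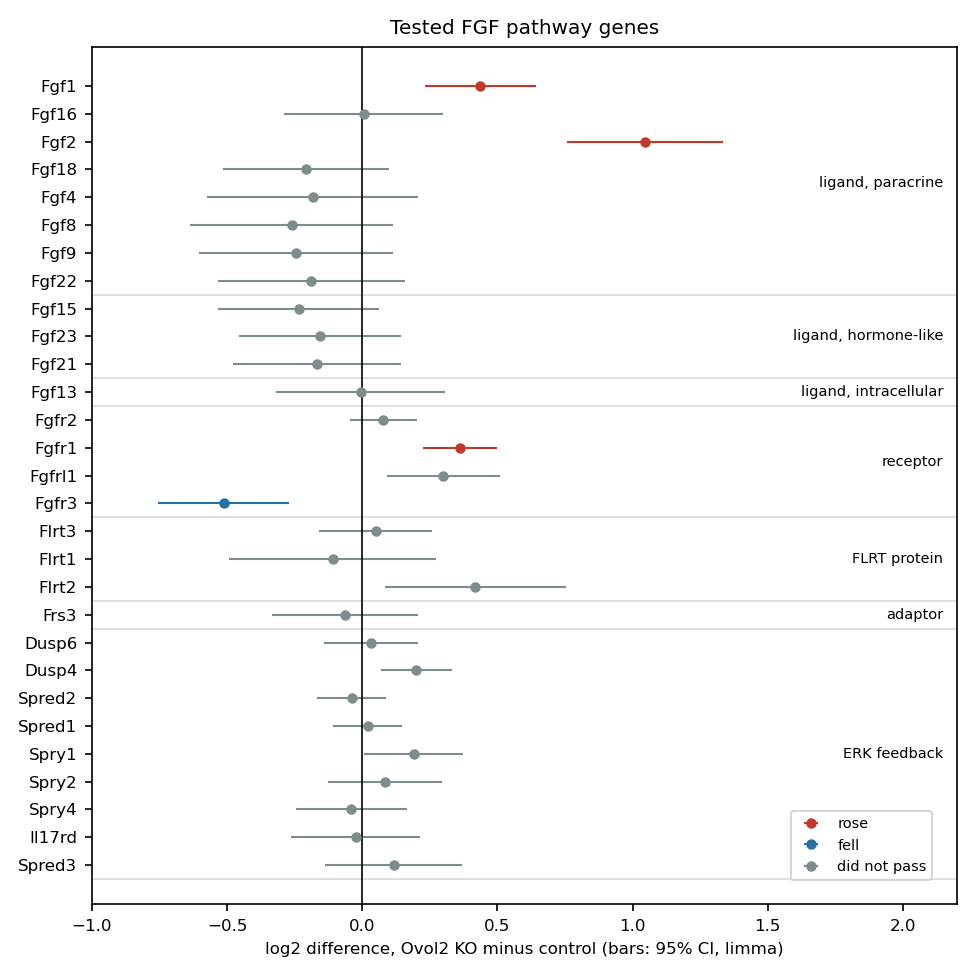
Log2 difference (Ovol2 KO minus control) with its 95% CI from limma for the 29 tested members, grouped by role, red for those that rose, blue for the one that fell and grey for those that did not pass. Fgf2 stands at 1.05, Fgf1 at 0.44, Fgfr1 at 0.36 and Fgfr3 at -0.51, while all 9 ERK feedback genes lie between -0.04 and 0.20.

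The FLRT proteins are membrane proteins with leucine-rich repeats that can bind FGF receptors and also act in cell adhesion and guidance. None of the 3 passed. Flrt2 read 8.42 and 8.25 in the KO arrays, against 7.84 and 7.99 in the control arrays, with no overlap (log2 difference 0.42 ± 0.15, limma adjusted p = 0.109). Its control mean of 7.92 lay under the filter. Of its 13 alternatives it passed in 1, the deposited values without further normalization (adjusted p = 0.0286), in a range from 0.0286 to 0.479. Flrt1 and Flrt3 had log2 differences of -0.11 and 0.05 with overlapping groups. The adaptor gene Frs3 had -0.06 ± 0.12. The genes of the secreted carriers Fgfbp1 and Fgfbp3, which release FGFs from matrix, lay under the filter, with means of 7.15 and 7.80.

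No ERK feedback gene passed the threshold. Of 10 on the array, 9 were tested and 0 passed in limma, against 10.7% of all tested genes. An unadjusted limma p under 0.05 was found for 2 of the 9 (Dusp4 and Spry1). The share of all tested genes at that unadjusted level was not computed, so this count is description only. Dusp6, the ERK phosphatase gene commonly used as an FGF readout, read 11.98 and 12.10 in the KO arrays, against 11.89 and 12.13 in the control arrays. The 2 groups covered the same range (log2 difference 0.03 ± 0.08, 95% CI -0.14 to 0.21), and the sign of the difference turned with median centring and without control replicate 1 or KO replicate 2. Dusp4, which encodes a nuclear phosphatase of ERK and related kinases, read 11.30 and 11.23 in the KO arrays, against 11.02 and 11.11 in the control arrays. Its groups did not overlap (log2 difference 0.20 ± 0.06, 95% CI 0.07 to 0.33, limma adjusted p = 0.0569). Dusp4 passed with a robust prior (limma adjusted p = 0.0402) and with the replicate number as a block (0.00379), in a range up to 0.586. It also passed without control replicate 2, at a log2 difference of 0.25, and without KO replicate 2, at 0.23.

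Sprouty proteins block the step from receptor to Ras and Raf. Spry1 read 9.99 and 10.09 in the KO arrays, against 9.77 and 9.94 in the control arrays (log2 difference 0.19 ± 0.08, 95% CI 0.01 to 0.37, limma adjusted p = 0.179). Spry2 read 9.48 and 9.54 in the KO arrays, against 9.32 and 9.53 in the control arrays (0.08 ± 0.10), and Spry4 read 9.34 and 9.43 in the KO arrays, against 9.34 and 9.51 in the control arrays (-0.04 ± 0.09). The KO arrays were above the control arrays for Spry1 by a small margin, and the groups overlapped for Spry2 and Spry4. The sign for Spry4 turned in the values as deposited and without control replicate 2 or KO replicate 1, as did that for Spry2 without control replicate 1. Spry3 lay under the filter.

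Il17rd, also called Sef, is a membrane protein that holds back ERK signalling. It read 8.80 and 8.71 in the KO arrays, against 8.78 and 8.77 in the control arrays (log2 difference -0.02 ± 0.11). Spred1, Spred2 and Spred3, which recruit neurofibromin to Ras, had log2 differences of 0.02, -0.04 and 0.12. Il17rd and Spred2 each had a second, dimmer probe set, with differences of -0.05 and -0.17. Over the 9 tested feedback genes the 95% CIs reached from -0.26 to 0.37, so a change beyond a log2 difference of 0.37 in either direction lay outside the interval of each.

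The 14 members under the filter, of which 10 are ligand genes, had means between 6.45 and 7.82. Their unfiltered log2 differences ran from -0.23 to 0.35 with a median of -0.04. For 3 of them (Fgf7, Fgf11 and Fgfr4) both KO arrays lay above both control arrays, for 2 (Fgf6 and Fgf20) below, and for 9 the groups overlapped. These 9 were Fgf3, Fgf5, Fgf10, Fgf12, Fgf14, Fgf17, Fgfbp1, Fgfbp3 and Spry3. Over all tested genes the shares were 26.4% above and 29.9% below. No share was computed over all genes under the filter, so the counts here are description only. Closest to the filter were Fgf22, tested with a mean of 8.004, and Fgf17, not tested with a mean of 7.82.

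Other genes of the pathway were read from 3 lists. Heparan sulfate proteoglycans, enzymes and klothos act as FGF co-receptors or shape them, and 20 of 22 were on the array. Of 18 tested, 3 rose, 2 fell and 13 did not pass, while 6.29% of all tested genes rose and 4.45% fell. Sdc1, the main syndecan of epithelium, read 11.04 and 10.66 in the KO arrays, against 11.51 and 11.50 in the control arrays. Both KO arrays were lower, 1 of them clearly more so, and Sdc1 fell by 0.65 ± 0.10 on the log2 scale (limma adjusted p = 0.00479). The call did not hold with a robust prior (adjusted p = 0.0706) or without the variance trend (0.0721), in a range from 1.81e-28 to 0.0721. The glypican genes Gpc6 and Gpc3 had log2 differences of 0.58 ± 0.13 and -0.30 ± 0.07, and the syndecan gene Sdc2 had 0.30 ± 0.07 (adjusted p between 0.0212 and 0.0271 in limma). These 3 calls were lost without control replicate 1 and without the variance trend, those of Sdc2 and Gpc3 also with median centring and without control replicate 2, that of Sdc2 without KO replicate 2, that of Gpc6 with a robust prior, and that of Gpc3 in the values as deposited. The third gene that rose, named after its value was seen, was Sdc3. The Sdc3 call was also lost without control replicate 1. The counts of the list changed when 1 array was left out, as did the counts over all tested genes. The value for Gpc6 was 0.34 without KO replicate 2. The list median was -0.03, and Kl and Klb, the klotho genes, lay under the filter.

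Of 26 genes that carry the signal from receptor to ERK, 20 were on the array and tested. In limma 0 of the 20 passed, against 10.7% of all tested genes, with 3 at an unadjusted p under 0.05. No share of all tested genes at that unadjusted level was computed, so these 3 are description only. Their differences ran from -0.15 to 0.24, with a median of 0.02. The 4 largest belonged to the scaffold gene Ksr1 (0.24), the Ras inhibitor gene Nf1 (0.18) and the kinase genes Araf (0.18) and Braf (0.17). Without KO replicate 2, Nf1 passed. With the replicate number as a block 3 rose, Nf1, Araf and Braf, while 1170 of all 11963 tested genes rose there, against 753 as reported.

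Among 20 ERK-responsive targets, 3 rose, 3 fell and 14 did not pass, with a median of 0.05. Of all tested genes, 6.29% rose and 4.45% fell. The ETS factor gene Etv1 read 10.81 and 10.90 in the KO arrays, against 10.29 and 10.33 in the control arrays, and its relative Etv4 read 8.95 and 8.36 in the KO arrays, against 9.60 and 9.43 in the control arrays. Neither gene's groups overlapped, and they moved in opposite directions. Etv1 rose by 0.54 ± 0.06 (limma adjusted p = 0.00112) and Etv4 fell by 0.86 ± 0.17 on the log2 scale (adjusted p = 0.0113). Etv1 passed under all 14 alternatives. The Etv4 call was lost without control replicate 1 (adjusted p = 0.0529), with a robust prior (0.0565) and without the variance trend (0.0834), in a range from 3.35e-19 to 0.0834, and its size was -0.57 without KO replicate 2. The phosphatase gene Dusp9 fell by 0.41 ± 0.11 (adjusted p = 0.0429), a call lost without either control array, at 0.338 and 0.0856, in the values as deposited, with median centring and without the variance trend, in a range from 0.0314 to 0.338. The AP-1 gene Fosl1 had 0.65 ± 0.25, with KO values of 9.08 and 10.05 against control values of 8.72 and 9.10, and did not pass. It passed without KO replicate 1, at 1.14, with median centring, in the deposited values and with the replicate number as a block, and it was 0.17 without KO replicate 2. Named after their values were seen, the other members that passed were Fos and Dusp1, which rose, and the cyclin gene Ccnd1, which fell. The list had 6 genes that rose in the deposited values, where 1016 of all 11963 tested genes rose. It also had 6 with the replicate number as a block, where 1170 of all tested genes rose, against 753 as reported. The counts of the list changed when 1 array was left out, as did the counts over all tested genes.

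**Figure D3:**
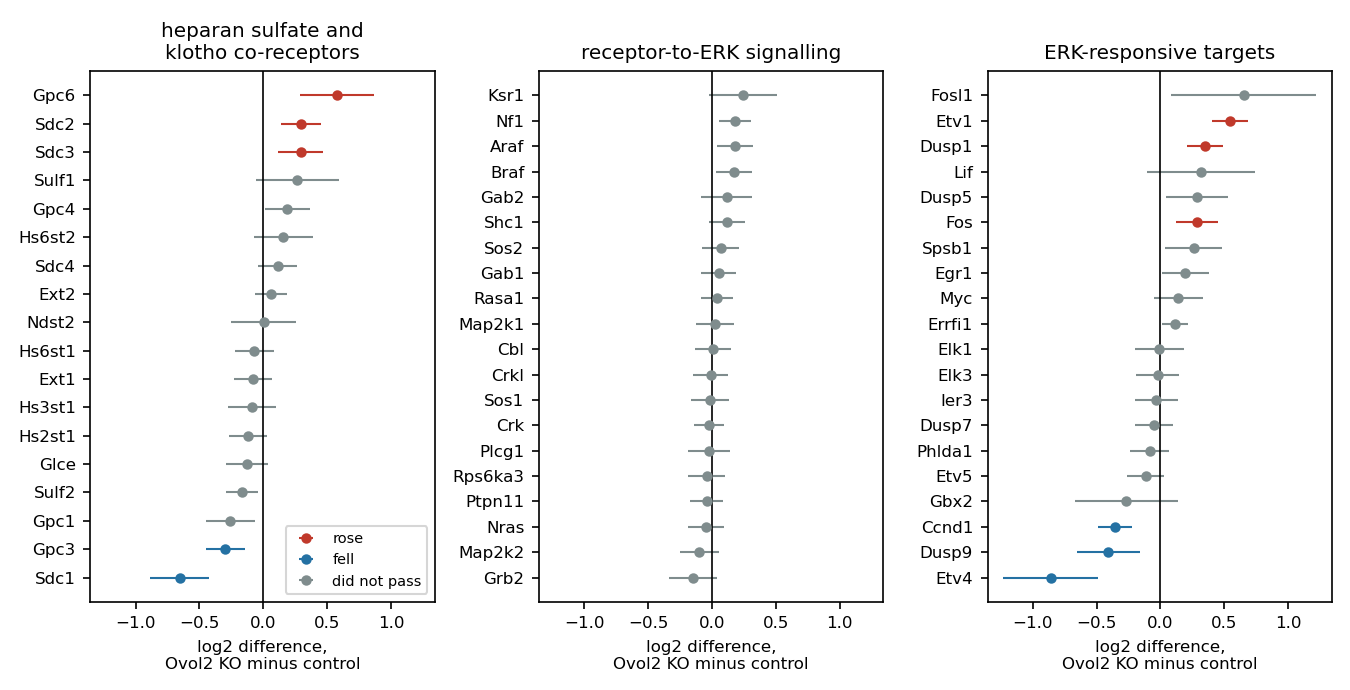
Log2 difference (Ovol2 KO minus control) with its 95% CI from limma for the tested genes of the 3 other pathway lists, in the colours of the plot of members. All 20 genes between receptor and ERK lie between -0.15 and 0.24 and are grey, while the co-receptor list runs from -0.65 (Sdc1) to 0.58 (Gpc6) and the target list from -0.86 (Etv4) to 0.65 (Fosl1).

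Markers of other cell types were read on the same arrays, and the lists differed in direction. Of all tested genes, 6.29% rose and 4.45% fell. Of 18 fibroblast markers 17 were on the array, and 17 of 17 rose with a median log2 difference of 1.25. Their summed deposited signal was 39979 and 48260 in the KO arrays, against 19114 and 20670 in the control arrays. None had a mean under the filter, but Lama2 lay under it in both control arrays, at 7.25 and 7.85, and was tested through its KO signal. Of 7 tested adipocyte markers 6 rose, and of 10 endothelial markers 5 rose, with medians of 0.58 and 0.62. Kdr, an endothelial marker that rose, lay under the filter in both control arrays, at 7.57 and 7.82, and was tested through its KO signal. Tek and Tie1, which did not pass, had control means of 7.94 and 7.88, also under the filter. Over all markers on the array, under the filter or not, the summed signals were 8008 and 8646 in KO against 5672 and 6034 in control for adipocyte markers, and 7375 and 8647 in KO against 5238 and 6148 in control for endothelial markers. The defining adipocyte genes Adipoq, Lep, Plin4 and Cidec lay under the filter on their means. The epithelial markers summed to 88108 and 89523 in KO, against 83488 and 87231 in control, and the leukocyte markers to 5509 and 4791 in KO, against 5831 and 5745 in control. Of the 9 tested leukocyte markers 2 rose and 3 fell. Cd79b, which fell, lay under the filter in both KO arrays, at 7.68 and 7.19, and was tested through its control signal. Ptprc and Cd3e, which did not pass, had KO means of 7.91 and 7.94, also under the filter. The part of these marker shifts in the values of Fgf2, Fgf1, Fgfr1 and Fgfr3 was not tested.

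Across single arrays, KO replicate 2 had the larger fibroblast shift, with a list median 1.40 above the control mean, against 0.99 in KO replicate 1. Fgf1 (0.53 and 0.34), Fgfr1 (0.42 and 0.30) and Fgfr3 (-0.66 and -0.37) lay further from their control means in KO replicate 2 than in KO replicate 1. For Fgf2 the distances were 1.09 and 1.01. The median of the 17 epithelial markers was 0.06 in KO replicate 2 and -0.03 in KO replicate 1. The endothelial (0.78 and 0.44), adipocyte (0.49 and 0.44) and leukocyte (-0.31 and -0.28) medians were also further out in KO replicate 2. The share of all tested genes with this order was not computed, and a link between members and marker lists was not tested.

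**Figure D4:**
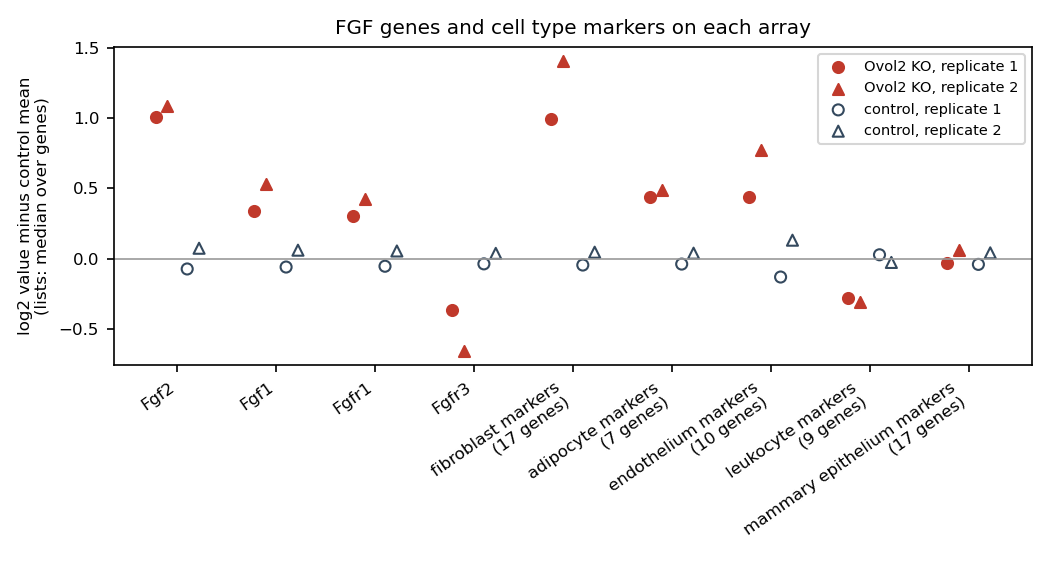
Log2 value minus the mean of the 2 control arrays for Fgf2, Fgf1, Fgfr1 and Fgfr3 and for the median gene of 5 marker lists, on each Ovol2 KO (filled red) and control (open grey) array. The fibroblast list lies 0.99 and 1.40 above the controls in KO, the epithelial list at -0.03 and 0.06, and Fgf2 at 1.01 and 1.09.

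Fgf2 stayed between 0.97 and 1.12 when any 1 array was left out and over all settings between 0.91, with an offset of 64, and 1.12. With 1 array left out, Fgf1 stayed between 0.34 and 0.53, Fgfr1 between 0.30 and 0.42, and Fgfr3 between -0.66 and -0.37. Fgfrl1 ranged from 0.17 without KO replicate 2 to 0.43 without KO replicate 1, and Dusp4 from 0.16 to 0.25.

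**Figure D5:**
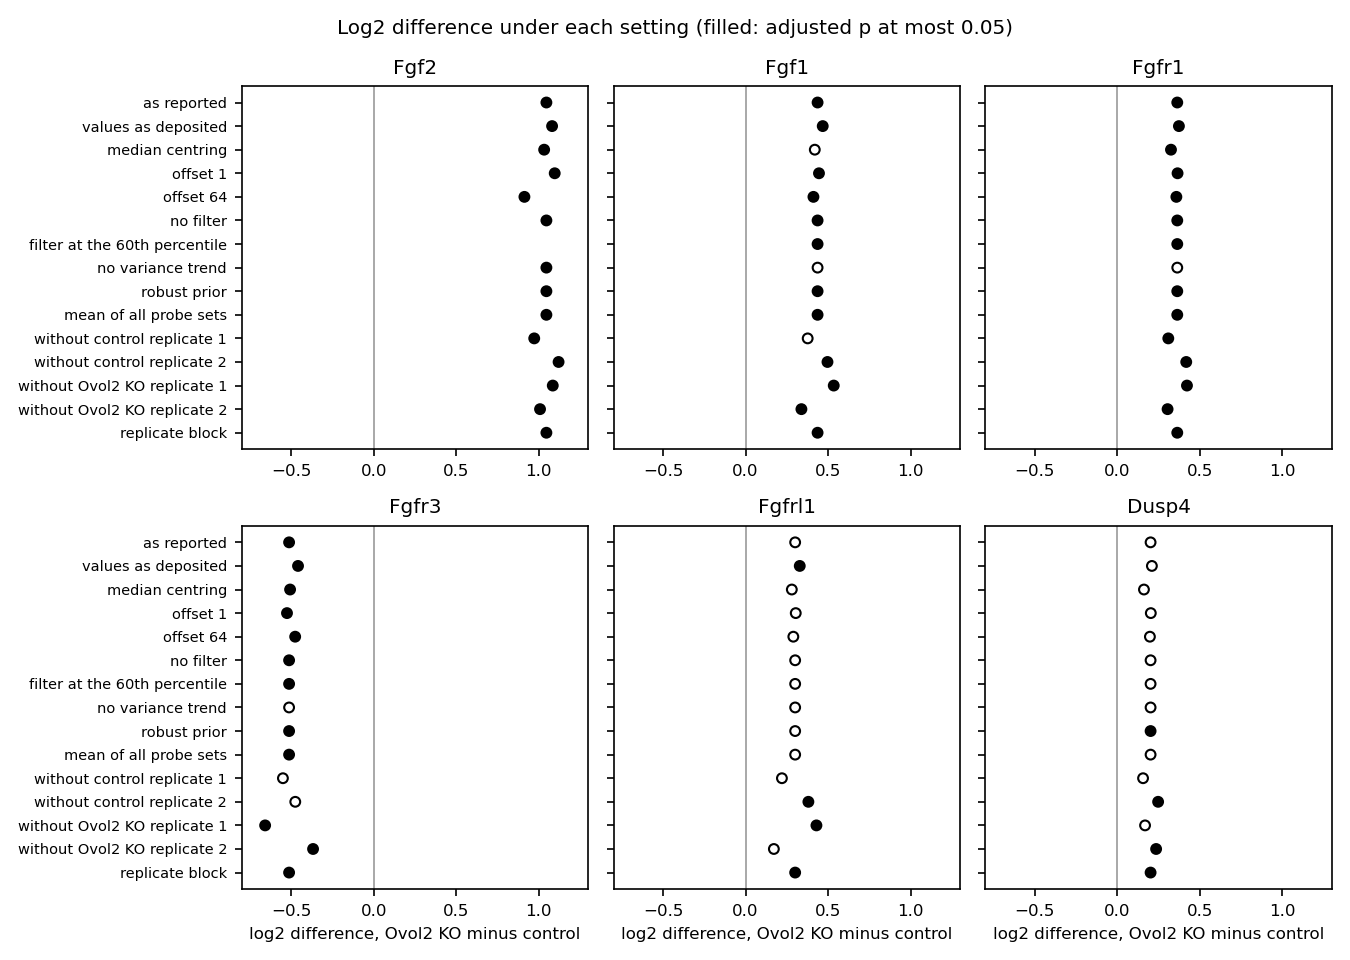
Log2 difference (Ovol2 KO minus control) of 6 members under each setting, filled where the adjusted p was at most 0.05. Fgf2 is filled in every setting in which it was tested, Fgfr1 in all but 1 of the alternatives, Fgf1 and Fgfr3 in all but 3 each, and Fgfrl1 and Dusp4 are filled in 4 alternatives each.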

How the data were processed

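The authors deposited 1 linear signal intensity for each of 35556 probe sets and 4 arrays. Per the submitters' processing notes, the tools were Affymetrix Expression Console 1.1.1 and PLIER 2.0. Settings, background correction and normalization were not given in the sources used here. Array medians were 263 and 272 in KO and 264 and 252 in control. The platform annotation gave 1 gene symbol to 21789 probe sets. The probe set with the highest mean stood for a gene.

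Medians of log2(signal + 16) differed by 0.1006 between arrays, above the limit of 0.1, so the arrays were quantile normalized. Genes under the 40th percentile of means (7.97, a signal of about 235) were not tested. limma 3.58.1 in R 4.3.3 (lmFit, eBayes with trend, two-sided, Benjamini-Hochberg) compared the groups and was tested on simulated data. Pools are called biological replicates in the labels. All members were named in the text, with full values for those past the threshold, the 6 largest others and 10 fixed genes. In each other list the 4 largest differences were named, and some further list genes and markers were named after their values were seen. Members and lists were chosen with earlier results of these data known. Promoters were taken from RefSeq (GRCm38.p6) by symbol, and all 43 members' Entrez identifiers were found there. Alternatives covered normalization, offset, filter, variance prior, probe set choice, single arrays and replicate number.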

Additional observations from a re-analysis of the deposited data

How the results depend on the processing

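The groups held 2 arrays each, so a call rests on variance borrowed across genes, and with 1 array left out the lone array of a group is assumed to vary like the other group. Without KO replicate 1, without KO replicate 2 and in the values as deposited the variance was taken as known from the trend, which makes adjusted p-values there small. Whether this held with median centring or with the replicate number as a block was not recorded. Limma adjusted p-values there were also very small, such as 8.77e-09 for Fgf2 with median centring and 3.35e-10 for Fgfr1 with the block. The low ends of the ranges are therefore not a measure of strength. The count of tested genes past the threshold was 1285, against 753 with median centring and 188 without the variance trend, and it ranged from 476 to 2347 when 1 array was left out (476 without control replicate 1, 2347 without KO replicate 1). The count of members that rose was 3, against 5 in the values as deposited (with Fgfrl1 and Flrt2), 1 without the variance trend (Fgf2), and 2 to 5 when 1 array was left out (5 without control replicate 2, with Dusp4 and Fgfrl1). The count that fell was 1, against 0 without the variance trend and 0 to 1 when 1 array was left out (0 without either control array). Over all tested genes, 1016 rose in the values as deposited and 143 without the variance trend, against 753 as reported. Without the variance trend 45 fell, against 532 as reported. The cause of these changes in count was not tested.

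The labels do not say that the replicate numbers mark a shared litter or day, so the numbers were not taken as pairs. The replicate differences of the 2 groups correlated across genes at -0.196. With 1 such difference per group, this does not show whether arrays shared a litter or day. With the replicate number as a block, 2246 genes, 5 members that rose (Dusp4 and Fgfrl1 added) and 1 that fell passed the threshold.

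Of the 29 tested members, 18 kept their sign under every alternative in which they were tested, Fgf2, Fgf1, Fgfr1 and Fgfr3 among them, and 11 turned it in at least 1, none of which passed. In the values as deposited, log2 differences with a turned sign were 0.041 for Fgf13, 0.034 for Il17rd and 0.0012 for Spry4, and with median centring -0.012 for Dusp6 and -0.014 for Spred1. When 1 array was left out, the values ranged from -0.091 to 0.16 for Dusp6, -0.14 to 0.13 for Fgf13, -0.091 to 0.10 for Fgf16, -0.37 to 0.0040 for Fgf4, -0.34 to 0.12 for Flrt1, -0.016 to 0.12 for Flrt3, -0.14 to 0.014 for Frs3, -0.071 to 0.025 for Il17rd, -0.016 to 0.055 for Spred1, -0.025 to 0.19 for Spry2 and -0.12 to 0.043 for Spry4. Among the co-receptor genes, 1 rose with median centring and 0 without the variance trend, against 3 as reported. Over all tested genes, 480 rose with median centring and 143 without the variance trend, against 753 as reported. Detection calls were not used, so dim ligand genes limit what can be said about them.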
